A study of Mus musculus with 4 samples.

Results

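The interferon-stimulated genes are genes that cells switch on after an interferon has bound its receptor. A set of 37 such genes was followed in the liver of diet-induced obese (DIO) mice after nasal dosing with GALP, short for galanin-like peptide, a neuropeptide of the hypothalamus. The members were taken by gene name from the probe annotation of the arrays. All 37 were found, with 58 probes in all, among 26414 named genes with values. The brightest probe without an outlier mark stood for each gene.

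Male C57BL/6 mice were 8 weeks old at purchase and spent 14 weeks on the high-fat diet, and those that weighed at least 40 g were used. They received porcine GALP(1-60) in saline with 5% α-cyclodextrin, or saline as the control, by the nose in 2 µL once a day for 11 days. The GALP-treated mice were divided by outcome into a greater weight loss pool (RNA of 4 mice) and a less weight loss pool (RNA of 4 mice), and RNA of 8 saline-treated mice formed the control pool, so all 3 groups carried the diet and the intranasal dosing. Every comparison of a GALP pool with the control was run on 2 dual-colour arrays, once with GALP in Cy5 and once in Cy3, and 1 slide held the 4 arrays. The 2 arrays of a pool hold the same extracts and count as 1 replicate, so every mean ± SD below is over n = 2 pools, and no value measures the spread between mice or between control pools. The design has too few pools for any exact test to reach significance. In the sample labels the control channels also bear a weight loss group, whereas the methods describe 1 control pool, which is how it was treated here.

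Type I interferons signal through the receptor pair Ifnar1 and Ifnar2 and the kinases Jak1 and Tyk2 to a complex with Stat2 and Irf9, which binds the interferon-stimulated response element (ISRE) in promoters. Interferon-gamma signals through Ifngr1 and Ifngr2 and acts on promoters that hold the gamma-activated sequence (GAS). The products sense foreign RNA or DNA, degrade viral RNA, block translation, attack the vacuoles of intracellular pathogens, or attract T cells, and in the liver both hepatocytes and resident macrophages express many of them.

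The response elements are shown first, because they are the promoter sequences through which interferon acts on many such genes. The members were chosen by name and not by these elements. In the RefSeq promoter table (GRCm38.p6, 250 bases before to 50 bases after each start), 28 of the 37 members matched by symbol, with 33 promoters. Both strands were searched for the ISRE core GAAANNGAAA and the GAS core TTCNNNGAA. The ISRE core was present in 19 of the 33 member promoters (57.6%) and in 3.44% of all 32851 promoters. The GAS core was present in 7 of the 33 (21.2%) and in 8.3% of all promoters. Windows of 60 bases upstream of the start follow for members with high, intermediate and low ratios in the liver, with the ISRE cores in capitals and the reverse complement of the core where it lies on the other strand.
Cxcl10, chr5:92349068-92349127, minus strand: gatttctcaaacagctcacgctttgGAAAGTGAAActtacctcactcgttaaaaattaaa
Gbp2, chr3:142620579-142620638, plus strand: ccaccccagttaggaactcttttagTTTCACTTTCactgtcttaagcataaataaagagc
Oas1a, chr5:120907526-120907585, minus strand: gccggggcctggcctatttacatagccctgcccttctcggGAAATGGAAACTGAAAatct
Gbp3, chr3:142559980-142560039, plus strand: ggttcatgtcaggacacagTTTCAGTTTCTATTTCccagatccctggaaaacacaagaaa
Rsad2, chr12:26456538-26456597, minus strand: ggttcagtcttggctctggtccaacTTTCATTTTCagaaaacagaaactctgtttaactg
Ifit3, chr19:34583382-34583441, plus strand: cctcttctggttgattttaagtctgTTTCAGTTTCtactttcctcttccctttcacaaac
Isg15, chr4:156200850-156200909, minus strand: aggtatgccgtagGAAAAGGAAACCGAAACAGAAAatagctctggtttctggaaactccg
Irgm1, chr11:48871421-48871480, minus strand: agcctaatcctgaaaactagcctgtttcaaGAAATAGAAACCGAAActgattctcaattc
Stat2, chr10:128270251-128270310, plus strand: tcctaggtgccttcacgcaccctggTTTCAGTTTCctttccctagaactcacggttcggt
Isg15 carries 3 overlapping cores, Oas1a, Gbp3 and Irgm1 carry 2, and the others show 1 core in the window.

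The interferon-stimulated genes lay mostly a little above the control in both GALP pools, and no member passed the threshold for a change common to both. Of the 37 members, 31 had signal on every array, meaning that 1 channel or both stood well above background. Among these, 26 had a log2 ratio of GALP over control above 0 in the greater weight loss pool and 22 in the less weight loss pool. The median log2 ratio of the 31 was 0.22 in the greater and 0.14 in the less weight loss pool, against -0.01 and -0.02 over the 11292 genes with signal. Of the 31 members, 13 (41.9%) were above 0 on all 4 arrays, against 12.7% of the genes with signal, and 2 (6.45%) were below 0 on all 4, against 14.6%. The filter on signal could in principle admit a gene through the GALP channel alone, but 30 of the 31 were well above background in both channels of every array, and their medians were 0.21 and 0.13. Over all 37 members, those at background included, the medians were 0.25 and 0.21. The excess in the less weight loss pool depended on the processing. Its median was 0.01 without the array with GALP in Cy5. It was 0.07 when the intensities were processed again with normexp background correction (offset of 50) and loess, against -0.01 over the genes with signal. With that processing 23 of the 31 members had a mean of the 2 pools above 0, against 48.6% of the genes. On all 4 arrays 13 were above 0, against 12.1%.

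The sizes were small. A fold over 1.5 (log2 0.58) was reached by 3 of the 31 members with signal in the greater weight loss pool. It was reached by 0 in the less weight loss pool, and 0 lay under 0.75-fold (log2 -0.42) in either pool. Such folds were uncommon among all genes with signal. In the greater weight loss pool 98.0% of these genes lay at or below log2 0.55, and 98.5% at or below 0.6. In the less weight loss pool the shares were 98.2% and 98.5%. At or below log2 -0.4 lay 4.06% of these genes in the greater and 4.72% in the less weight loss pool. The calling rule used here joined the study's fold and p-value thresholds with its choice of changes common to both pools. It asked for such a fold in both pools, and for all 4 arrays to share the direction and have a p-value from Feature Extraction (the scanner software) under 0.01, a strict reading, since the number of arrays that must pass is not stated. It called 0 of 37 members, against 0.0719% of genes called higher and 0.148% called lower. Within the greater weight loss pool alone the rule called 1 member higher (Cxcl10) and 0 lower, against 0.371% and 0.492% of genes. Within the less weight loss pool it called 0 either way, against 0.299% and 0.416% of genes. The limma test of the 2 pools against 0 called 0 members at an adjusted p under 0.05 and 0.0% of the 41037 probes. Without adjustment it gave 7 members higher (18.9%) and 1 lower (2.7%) at p under 0.05, against 5.5% and 6.59% of genes, and 3 of the 7 (Ifit1, Oas2 and Ifi44) were too dim to be read on every array. The smallest adjusted p of any member was 0.374 (limma), with 1 residual degree of freedom.

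**Figure D1:**
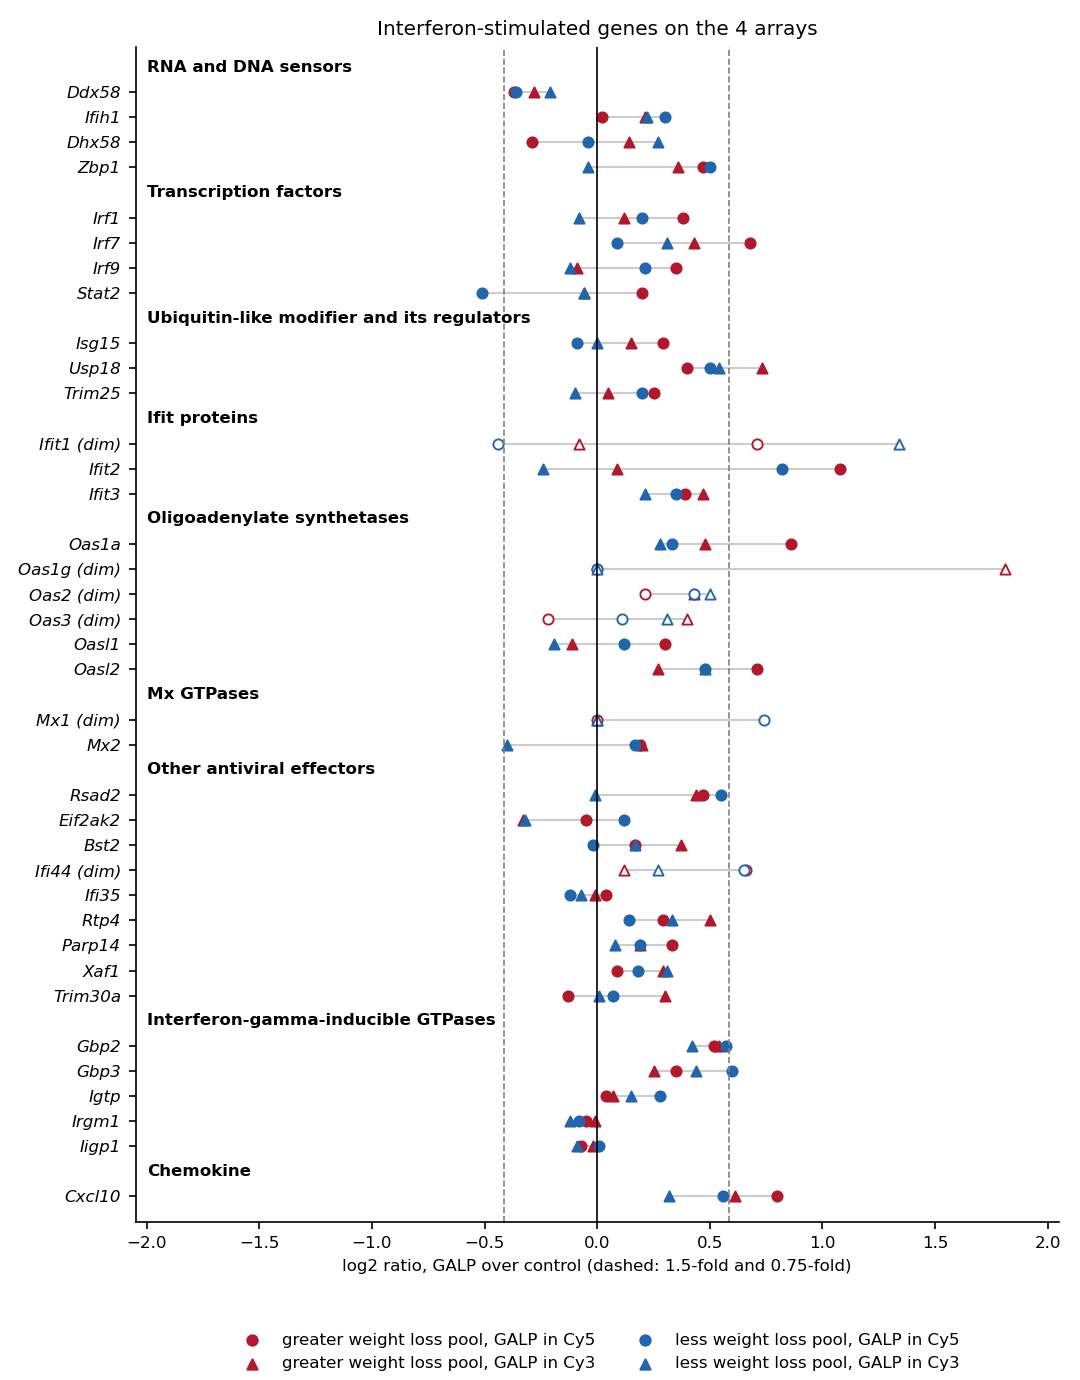
Log2 ratio of GALP over control (horizontal axis) of each of the 37 members on each of the 4 arrays, by role; red marks the greater and blue the less weight loss pool, circles GALP in Cy5 and triangles GALP in Cy3, open symbols members without signal on every array. Most members lie to the right of 0, with Cxcl10, Usp18 and Gbp2 above 0 on all 4 arrays and Ddx58 below 0 on all 4.

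**Figure D2:**
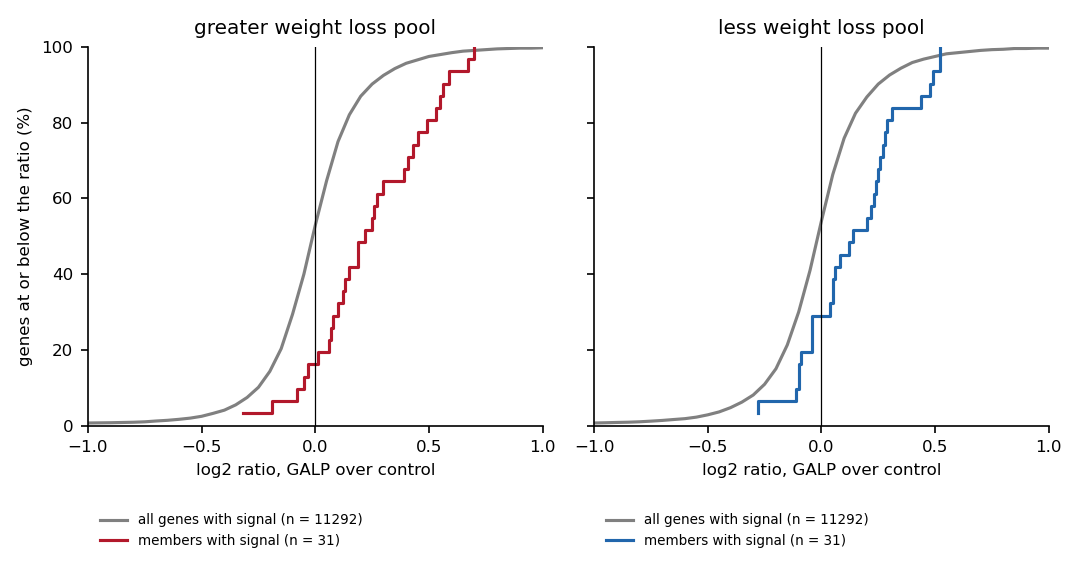
Cumulative share (vertical axis, %) of genes at or below a log2 ratio of GALP over control (horizontal axis) in the greater and the less weight loss pool, for the 31 members with signal (coloured steps) and the 11292 genes with signal (grey). The steps of the members run to the right of the grey curve in both pools, with medians of 0.22 and 0.14 against -0.01 and -0.02.

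Cxcl10, a chemokine that attracts activated T cells through the receptor Cxcr3, had the highest mean of the members with signal. Its processed signal in the greater weight loss pool was 1117 against 642 in the control with GALP in Cy5, and 905 against 593 with GALP in Cy3. In the less weight loss pool it was 866 against 589 and 812 against 651. The GALP signal was above the control on every array, and the log2 ratios were 0.80, 0.61, 0.56 and 0.32 in that order. The Feature Extraction p-values were 0.00024, 0.0041, 0.0086 and 0.12, so the last array missed the threshold. The fold was 1.63 in the greater and 1.35 in the less weight loss pool. The mean log2 ratio was 0.57 ± 0.19 (SD, n = 2) with a limma adjusted p of 0.465. With normexp and loess the greater weight loss pool gave 0.49 and the call was lost. The probe lies at chr5:92775781-92775840 of mm9. The call rests on the 2 arrays of 1 pool. It held without either of them, but other members then joined it. Without the Cy3 array of the greater weight loss pool, Irf7, Ifit2, Oas1a and Oasl2 were called in that pool as well (5 members). Without its Cy5 array Usp18 was (2 members). In these settings the p-value had to pass on 1 array of the pool only, which is easier for any gene. The share of all genes called there is not given.

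**Figure D3:**
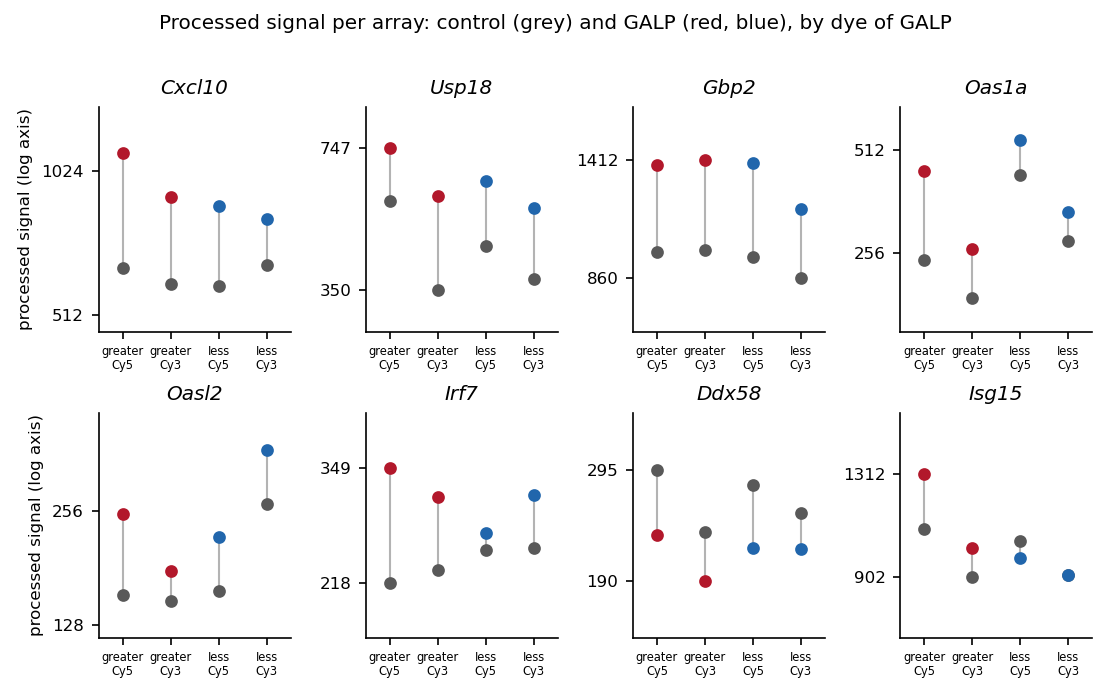
Processed signal (vertical axis, log scale, not scaled between arrays) of 8 members on each array, with control in grey and GALP in red (greater weight loss pool) or blue (less weight loss pool). Cxcl10, Usp18, Gbp2, Oas1a, Oasl2 and Irf7 show GALP above the control on all 4 arrays and Ddx58 shows it below, while the Isg15 signals of the less weight loss pool lie at or below the control.

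The ubiquitin-like modifier and its regulators differed among themselves. Usp18, the protease that removes Isg15 from proteins and dampens signalling at Ifnar2, had GALP over control signals of 747 over 565, 579 over 350, 628 over 444 and 542 over 372. Its log2 ratios were 0.40 and 0.73 on the arrays of the greater and 0.50 and 0.54 on those of the less weight loss pool, so the pools overlapped. The mean was 0.54 ± 0.03 (SD, n = 2; limma adjusted p 0.374). Isg15, the modifier itself, had log2 ratios of 0.29 and 0.15 in the greater and -0.09 and 0.00 in the less weight loss pool, a mean of 0.09 ± 0.19. Its mean turned to -0.01 with normexp and loess. Trim25, a ubiquitin ligase that activates the sensor Ddx58, was at 0.15 and 0.05 in the pools.

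The oligoadenylate synthetases make the messenger that activates RNase L, which degrades RNA. Oas1a was at log2 0.86 and 0.48 on the arrays of the greater and 0.33 and 0.28 on those of the less weight loss pool. All 4 arrays were above 0 and the pools did not overlap, with a mean of 0.49 ± 0.26 (SD, n = 2; limma adjusted p 0.571). Oasl2, a related protein, was at 0.71 and 0.27 in the greater and 0.48 and 0.48 in the less weight loss pool. Its pool values, 0.49 and 0.48, were nearly equal although the dye orientations of the greater weight loss pool were not, and normexp with loess gave a mean of 0.12. Oasl1, which restrains translation of Irf7, was at 0.10 and -0.04. The other synthetases were near background. Oas2 was at 0.32 in the greater weight loss pool. In the less weight loss pool only 1 of its GALP channels and no control channel was well above background. A nominal limit of 1.38-fold higher was computed there. For it, the control was set to the higher of its own signal and the dimmest signal well above background. The limit equals the plain fold and includes a GALP channel not well above background, so it is no firm lower bound. The Feature Extraction p-values were 0.28 and 0.49. Oas3 was well above background in 1 GALP channel of the greater weight loss pool only, and the nominal limit over both pools was 1.06-fold higher. Its log2 ratios were -0.22 and 0.40 in the greater and 0.11 and 0.31 in the less weight loss pool. Oas1g was not well above background in any channel. The Oas1 genes are close copies, and a probe of one may capture another.

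The Ifit proteins bind viral RNA that lacks the host's cap modification. Ifit3 was at log2 0.39 and 0.47 in the greater and 0.35 and 0.21 in the less weight loss pool, above 0 on every array and without overlap, with a mean of 0.35 ± 0.11 (SD, n = 2; limma adjusted p 0.45). Ifit2 was at 1.08 and 0.09 in the greater and 0.82 and -0.24 in the less weight loss pool, so the Cy5 arrays of GALP were high in both pools and the Cy3 arrays were not. Its mean of 0.44 ± 0.21 was 0.06 with normexp and loess, and its signals, from 41.5 to 89.6, were dim. Ifit1 was well above background in 1 GALP channel and in no control channel, and no fold is given for it. The near copy Ifit3b was not above background in any channel.

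Of the transcription factors, Irf7, the factor that amplifies type I interferon production, stood highest. Its log2 ratios were 0.68 and 0.43 in the greater and 0.09 and 0.31 in the less weight loss pool, without overlap between the pools. The mean was 0.38 ± 0.25 (SD, n = 2; limma adjusted p 0.644), and the gap between the pool values (0.55 and 0.20) was among the widest of the members. Irf1, which drives many interferon-gamma targets, was at 0.25 and 0.06 in the pools. Irf9, the DNA-binding part of the ISRE complex, was at 0.13 and 0.05. Stat2, its partner, was at 0.20 and -0.06 in the greater and -0.51 and -0.06 in the less weight loss pool, a mean of -0.11 ± 0.25. Its mean was 0.01 without the Cy5 array of the less weight loss pool.

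The sensors went different ways. Ddx58 (RIG-I, a sensor of viral RNA ends) had the lowest mean of the members with signal. Its GALP over control signals were 228 over 295, 190 over 231, 217 over 278 and 216 over 249, so it lay under the control on each array. The log2 ratios were -0.37 and -0.28 in the greater and -0.36 and -0.21 in the less weight loss pool, a mean of -0.30 ± 0.03 (SD, n = 2; limma adjusted p 0.374). No array had a Feature Extraction p-value under the threshold, and normexp with loess gave -0.12. Ifih1 (MDA5, a sensor of long double-stranded RNA) was at 0.12 and 0.26, above 0 on all 4 arrays. Dhx58 (LGP2, which modulates both) was at -0.08 and 0.12. Zbp1, a sensor of left-handed nucleic acid, was at 0.47 and 0.36 in the greater and 0.50 and -0.04 in the less weight loss pool.

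The interferon-gamma-inducible GTPases act on vacuoles that hold pathogens. Gbp2 had GALP over control signals of 1380 over 962, 1412 over 970, 1393 over 939 and 1150 over 860. Its log2 ratios, 0.52 and 0.54 in the greater and 0.57 and 0.42 in the less weight loss pool, were the closest together among the 5 highest means, with a mean of 0.51 ± 0.03 (SD, n = 2; limma adjusted p 0.374). Gbp2 was 1.45-fold and 1.41-fold above the control in the pools, just under the fold that the rule asks for. Gbp3 was at 0.35 and 0.25 in the greater and 0.60 and 0.44 in the less weight loss pool, so the less weight loss pool was higher. Without the Cy3 array of that pool, where only 1 array had to pass, Gbp3 was called in it. Igtp (Irgm3) was at 0.06 and 0.22. Irgm1 was at -0.05 and -0.01 in the greater and -0.08 and -0.12 in the less weight loss pool, and Iigp1 (Irga6) at -0.07, -0.02, 0.01 and -0.09 in the same order. Both lay close to the control, although the Irgm1 promoter shown above carries 2 ISRE cores. The Gbp genes lie in a cluster of similar genes, and cross-hybridisation between them was not tested.

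Among the other antiviral effectors, Rsad2 (viperin) was at log2 0.47 and 0.44 in the greater and 0.55 and -0.01 in the less weight loss pool, a mean of 0.36 ± 0.13 (SD, n = 2). All 3 probes of Rsad2 had a positive mean, from 0.36 to 0.67. Rtp4, which restrains RNA virus replication, was at 0.29 and 0.50 in the greater and 0.14 and 0.33 in the less weight loss pool, above 0 throughout, and its pools overlapped. Xaf1, which promotes apoptosis by opposing Xiap, was at 0.19 and 0.25 and Parp14, an ADP-ribosyltransferase, at 0.26 and 0.14, both above 0 on all 4 arrays. Bst2 (tetherin, which holds budding virions at the membrane) was at 0.27 and 0.08. Ifi44 was at 0.39 in the greater weight loss pool. In the less weight loss pool no control channel was well above background, and the nominal limit was 1.31-fold higher (Feature Extraction p-values 0.27 and 0.73). Ifi35 was at 0.01 and -0.09, and Trim30a at 0.08 and 0.04. Eif2ak2 (PKR, the kinase that halts translation on double-stranded RNA) was at -0.05 and -0.33 in the greater and 0.12 and -0.32 in the less weight loss pool, low with GALP in Cy3 in both. Mx1, a GTPase that traps viral nucleocapsids, was not well above background in any channel with either probe. Its paralogue Mx2 was at 0.19 and 0.20 in the greater and 0.17 and -0.40 in the less weight loss pool, a mean of 0.04 ± 0.22 that rests on the last array (0.18 without it).

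The members were also described by the ISRE core in the promoter table. The 15 with a core and signal had median log2 ratios of 0.22 and 0.22 in the greater and less weight loss pools, and the 9 matched members with signal and no core had 0.19 and 0.06. Of the former 7 were above 0 on all 4 arrays and of the latter 3. These are descriptions of few genes, and a missing core says only that these letters are not in the window.

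More members had the higher ratio in the greater weight loss pool. Of the 31 with signal, 23 were higher there than in the less weight loss pool, against 52.6% of the genes with signal. The arrays did not overlap in 12 members, with the greater weight loss pool above in 9 (29.0%) and the less weight loss pool above in 3 (9.68%), against 13.8% and 12.2% of the genes. The 9 were Irf7, Isg15, Ifit3, Oas1a, Mx2, Bst2, Ifi35, Irgm1 and Cxcl10, and the 3 were Ifih1, Gbp3 and Igtp. The median difference between the pools was 0.11 on the log2 scale in the members and 0.01 over all genes with signal. Regardless of sign, the median difference between the pools was 0.15 in the members and 0.1 over all genes with signal. The median gap between the dye orientations of the members, also regardless of sign, was 0.20 in the greater and 0.16 in the less weight loss pool. Both pools were set against the same control, so their ratios are not independent. The median of the less weight loss pool was 0.19 on its Cy5 array alone and 0.01 on its Cy3 array alone, and that of the greater was 0.29 and 0.20.

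**Figure D4:**
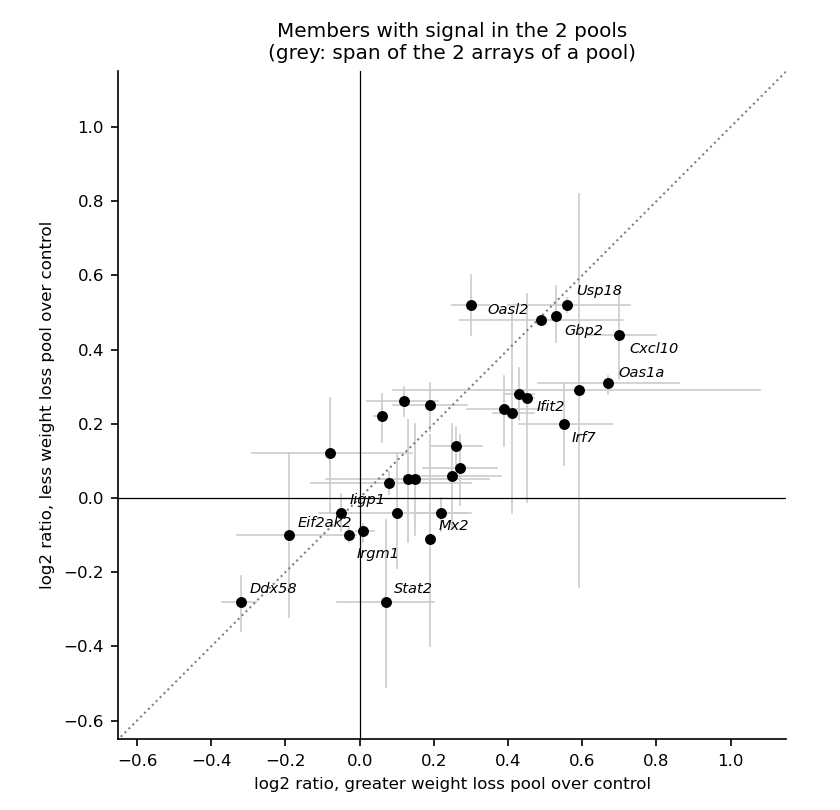
Log2 ratio of GALP over control in the greater (horizontal axis) and the less weight loss pool (vertical axis) of the 31 members with signal; grey lines span the 2 arrays of a pool, the dotted line marks equal ratios. Of the 31 points, 23 lie below the dotted line.

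The upstream pathway had medians near 0. Of 31 ligands, receptors, kinases, adaptors and regulators with values, 25 had signal, and their median log2 ratios were 0.03 and 0.00 in the greater and less weight loss pools. Of the 25, 14 had a mean above 0, against 45.7% of the genes with signal, 7 were above 0 on all 4 arrays, against 12.7%, and 0 were below 0 on all 4, against 14.6%. The rule called 0 of them in both pools or in either. Tlr7, an endosomal receptor of single-stranded RNA, had the highest mean, with 0.76 and 0.68 in the greater and 0.83 and 0.06 in the less weight loss pool (0.58 ± 0.19, SD, n = 2; limma adjusted p 0.463). Irf2, an antagonist of Irf1, followed at 0.24 ± 0.12. Tlr9, a receptor of unmethylated DNA, was lowest at -0.17 ± 0.09, and Ifnar1 was at -0.14 in both pools. Of the ligands, Ifna2, Ifna4 and Ifnk were not above background in any channel, and Ifnb1 was above it in 2 of 8 channels. The ligands Ifng (interferon-gamma) and Il28b were listed as well but not analysed here.

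Another 51 interferon-inducible genes outside the set had values on the arrays. Of these, 46 had signal, with medians of 0.10 and 0.08 in the greater and less weight loss pools. A mean above 0 was found in 37 of the 46, against 45.7% of the genes with signal, and 12 were above 0 on all 4 arrays, against 12.7%. The rule called 0 in both pools, against 0.0719% of genes called higher, and 2 higher in the greater weight loss pool, against 0.371%. These were Ccl5, a chemokine of T cells and monocytes, at 1.46 and 1.60 in the greater and 0.45 and 0.64 in the less weight loss pool, and Cxcl9, a chemokine that shares the receptor of Cxcl10, at 0.55 and 0.87 against 0.38 and 0.40. Both were above 0 on all 4 arrays. The lowest were Ifi47, another GTPase, at -0.42 and -0.18 in the greater and -0.47 and -0.34 in the less weight loss pool, and Parp9 at -0.15 ± 0.05 (SD, n = 2).

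**Figure D5:**
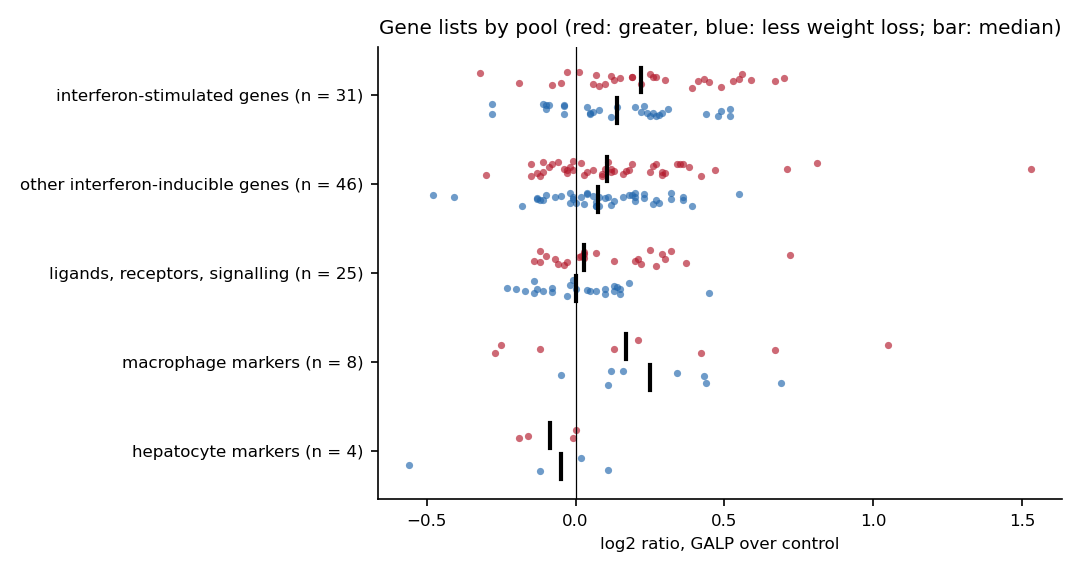
Log2 ratio of GALP over control (horizontal axis) of every gene with signal in 5 lists, with the greater weight loss pool in red, the less weight loss pool in blue and the median as a bar. The bars of the interferon-stimulated genes stand at 0.22 and 0.14, those of the ligands, receptors and signalling genes at 0.03 and 0.00, and those of the 8 macrophage markers at 0.17 and 0.25.

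Some markers of immune cells were also above the control. In pooled tissue RNA, more cells of a type cannot be told apart from more RNA per cell. For the calls below, the rule called 0.0719% of all genes higher and 0.148% lower in both pools. It called 0.371% higher and 0.492% lower in the greater weight loss pool, and 0.299% and 0.416% in the less. Of 8 macrophage and Kupffer cell markers, all with signal, Marco (a scavenger receptor) was called higher in both pools at 1.07, 1.02, 0.81 and 0.58, and Cd68 was called in the greater weight loss pool (0.67 against 0.43). Adgre1 (F4/80) and Cd5l were also above 0 on all 4 arrays, with means of 0.43 ± 0.01 (limma adjusted p 0.374) and 0.14 ± 0.02 (SD, n = 2). Csf1r had a mean of 0.27, Clec4f of 0.00, Vsig4 of -0.07 and Timd4 of -0.16. The list's medians were 0.17 and 0.25, and its summed signal was 25968 to 31770 in the GALP and 23125 to 25856 in the control channels. Of 9 T and NK cell markers, Nkg7 and Cd3d had signal on every array. Nkg7 was at 0.81 and 0.36 in the greater and less weight loss pools and was called in the greater. Cd3d was at 0.63 and -0.16 and was not called. Cd3g and Cd4 were at background throughout, and the summed signal was 353 to 666 in the GALP and 202 to 573 in the control channels. Of 4 dendritic cell markers only Itgax had signal (0.83 and 0.42, called in the greater weight loss pool), Flt3 and Clec9a were at background throughout, and the sums were 215 to 331 and 150 to 204. Of 4 plasmacytoid dendritic cell markers, Siglech, the defining one, was at background in every channel. In the pools Klk1 was at -2.54 and 0.67, Cox6a2 at 0.14 and -2.08 and Ccr9 at 0.15 and -0.13. Klk1 was called lower in the greater and higher in the less weight loss pool, and Cox6a2 was called lower in the less. The sums were 964 to 2596 and 2106 to 2430. They rested mostly on Klk1 and Cox6a2 (mean control signals 1430 and 769), and whether they reflect these cells was not tested. Of 4 B cell markers, Ms4a1 had a mean of -0.86 ± 0.19 (SD, n = 2) and was called lower in the less weight loss pool, Cd79b, the other one with signal, had a mean of -0.03, Cd79a was at background throughout, and the sums were 222 to 864 and 289 to 769. The neutrophil sums were 1577 to 1801 and 1360 to 1687, with Retnlg and Ngp at background. The sinusoidal endothelium sums were 3011 to 4089 and 2887 to 3417, with Pecam1 at background. The hepatocyte markers Alb, Ttr, Fgb and Tat were bright, as the tissue label has it, with medians of -0.09 and -0.05 and sums of 113995 to 164411 and 126429 to 175063. Paired within an array, GALP over control sums had log2 ratios of 0.17 to 0.31 for macrophage and 0.22 to 1.18 for T and NK cell markers. They were 0.17 to 0.79 for dendritic cell, 0.06 to 0.26 for sinusoidal endothelium and -0.1 to 0.41 for neutrophil markers. B cell markers gave -0.61 to 0.17, plasmacytoid ones -1.13 to 0.18 and hepatocyte ones -0.21 to -0.09. The part of these cells in the ratios of the interferon-stimulated genes was not tested.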

How the data were processed

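RNA from the livers of 2 GALP pools and 1 control pool was compared on 4 dual-colour Agilent arrays of 43379 spots, and so few arrays limit the precision. The authors' image software, Feature Extraction 12.0.3.1 per the file headers (version 11.0.1.1 in the submitters' processing notes), subtracted background, normalized the dyes by LOWESS and wrote a processed intensity for each channel. The log10 ratio that the authors deposited is Cy5 over Cy3, and the deposited p-value comes from the software's error model for 1 array. A series table with those log10 ratios in the direction of GALP over control was also deposited and served as an alternative.

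All ratios were converted to log2 in the direction of GALP over control. Outlier-marked spots (232 to 319 an array) were dropped, and values were averaged over the spots of a probe and then over the arrays of a pool. Spots well above background made up 40.5% to 46.7% of a channel, and no spot was saturated. For a probe at background on one side a nominal limit was computed from processed signals scaled between arrays. The calling rule and limma 3.58.1 (R 4.3.3, lmFit and eBayes, Benjamini-Hochberg over 41037 probes) were run on the whole table and tested on simulated data. The rule joined thresholds of the study and was read strictly. It does not compare treatments beyond the pooled extracts. Each member was named at least once. Values on every array were given for called members, the 5 highest and 5 lowest means, and the 5 largest gaps between pools, and for some others chosen after their values were seen. The members, lists and tests were chosen with earlier results of these data known. Alternatives were normexp with loess, centring, the series table, outlier marks, probes, filters, p and fold rules, limma's variance model and leaving out arrays or pools. Of the listed genes, 5 signalling genes, 4 other inducible genes and 4 markers were not analysed here. Probe positions are on mm9, and promoter sequences are from RefSeq (GRCm38.p6). Python 3.11.15, numpy 2.4.6, pandas 2.3.3 and matplotlib 3.10.9 were used.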

Additional observations from a re-analysis of the deposited data

How the results depend on the processing

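The count of members called by the rule in both pools was 1 with the less weight loss pool left out (range 0 to 1). It stayed at 0 under every other alternative run. Loosening or dropping the p rule, or a symmetric fold, could not change it for members with signal. None of these had a fold over 1.5 in the less weight loss pool or under 0.75 in either pool. The limma count stayed at 0 except with the pool as a random block over 4 arrays, where it was 1 (Gbp2, adjusted p 0.0437, limma), a fit that counts arrays of the same extracts as separate. It was 0 without each array, and could not be computed with a pool left out, since 1 pool leaves no spread. Its count at an unadjusted p under 0.05 ranged from 4 (without the Cy5 array of the less weight loss pool) to 20 (the random block). Of the 41037 probes, 3332 and 5310 passed in these settings. In the greater weight loss pool the rule called 0 members with normexp and loess. That setting kept the Feature Extraction p-values, and Cxcl10 was at 0.49 there, under the fold of the rule (log2 0.58). The rule called 1 to 5 members in the greater weight loss pool without 1 array. In the less weight loss pool it called 0 to 1 without 1 array. A pool that lost an array had to pass the p-value on 1 array only, and no share over all genes is given for these calls. The medians were 0.20 to 0.29 (greater) and 0.01 to 0.19 (less) without 1 array, and 0.15 and 0.07 with normexp. The members whose pools do not overlap numbered 12, and 17 to 25 without 1 array. There a pool is a single value, which separates from the other pool more easily in any gene. No share over all genes is given for these settings, so the rise is no result about the members. Under normexp Dhx58 and Isg15 took the other sign. There 13 members were above 0 on all 4 arrays, against 12.1% of the genes with signal, with Rsad2 in place of Igtp. Of 143 values of the 13 genes given by array, 114 stayed within the SD of the pools and 4 changed sign, in Mx2 and Stat2. Part of this was fixed in advance, so the 114 are no measure of robustness. Leaving out a pool moves the mean by less than that SD, apart from rounding. The series table holds the same ratios, and the probes used carry no outlier mark, so keeping marked spots left them as they were. Signal near background limited Ifit1, Oas1g, Oas2, Oas3, Mx1 and Ifi44.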

Other observations

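Other probes of the members were mostly dim, and a few stood apart. The second probe of Ifih1, without signal on every array, had log2 ratios of 0.00, 1.54, -0.60 and 1.54, where the brighter one had 0.02, 0.21, 0.30 and 0.22. The third and dimmest probe of Parp14 had a mean of -0.53 against 0.20 for the brightest. The second probe of Trim25 had a mean of -0.03 against 0.10, that of Trim30a had 0.29 against 0.06, and that of Irf1 had 0.25 against 0.16. Of the 4 probes of Ddx58, 3 had negative means, from -0.35 to -0.24, and the fourth was at 0.00 on every array, at background.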
